A study of Mus musculus with 16 samples.

Results

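The Fos and Jun family comprises the 7 mouse genes Fos, Fosb, Fosl1, Fosl2, Jun, Junb and Jund, which encode the classical subunits of the transcription factor AP-1. They were taken from the count table as the rows whose Ensembl identifier maps to these symbols, 7 of 38924 genes, and all 7 had enough counts to be tested among 18111 genes. PolyA RNA was sequenced from the periaqueductal gray (PAG), a midbrain region through which opioids act on descending control of pain, in a series on morphine tolerance and RGSz1, the G protein regulator encoded by Rgs20. The 16 libraries fell into 4 groups of 4, all from male mice: RGSz1 knockout (KO) given morphine, KO naive, wild type (WT) given morphine and WT naive. Each library pooled punches of 2 animals, and the labels call the 4 libraries of a group biological replicates. No group was labelled as given a vehicle, so the handling needed to give morphine cannot be told apart from the drug. The sources used here do not give the allele, strain, age, morphine dose, route or schedule.

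AP-1 is a dimer. Jun proteins can pair with one another or with a Fos protein, whereas Fos proteins need a Jun partner to bind DNA well. In neurons Fos, Fosb, Fosl2, Jun and Junb are inducible by activity, and Jund is present at a steady level. Fosb also gives the truncated splice form delta-FosB, which is unusually stable and is known from the striatum as a lasting mark of repeated exposure to drugs, opioids included. The counts here are per gene and do not separate delta-FosB from full-length FosB.

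Promoter sequences, 250 bases before to 50 bases after the annotated start (RefSeq, build GRCm38.p6), were matched for 6 of the 7 genes. Printed 5′ to 3′ are those of the 4 genes whose level passed the test between morphine and naive libraries in at least 1 comparison: Fosb (chr7:19309996-19310295, minus strand), Fosl2 (chr5:32136222-32136521, plus strand), Fos (chr12:85473640-85473939, plus strand) and Junb (chr8:84978699-84978998, minus strand). Capitals mark matches to the motifs searched.
Fosb: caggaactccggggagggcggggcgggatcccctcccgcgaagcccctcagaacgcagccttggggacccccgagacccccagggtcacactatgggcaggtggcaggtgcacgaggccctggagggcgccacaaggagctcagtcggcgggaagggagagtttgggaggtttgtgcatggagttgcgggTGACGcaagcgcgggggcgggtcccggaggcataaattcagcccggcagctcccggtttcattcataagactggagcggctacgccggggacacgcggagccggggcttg
Fosl2: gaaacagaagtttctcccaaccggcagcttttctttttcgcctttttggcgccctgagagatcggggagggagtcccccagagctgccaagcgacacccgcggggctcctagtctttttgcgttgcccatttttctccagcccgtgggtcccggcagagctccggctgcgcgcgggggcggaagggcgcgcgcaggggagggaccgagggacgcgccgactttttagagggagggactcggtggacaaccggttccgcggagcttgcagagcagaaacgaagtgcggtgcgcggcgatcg
Fos: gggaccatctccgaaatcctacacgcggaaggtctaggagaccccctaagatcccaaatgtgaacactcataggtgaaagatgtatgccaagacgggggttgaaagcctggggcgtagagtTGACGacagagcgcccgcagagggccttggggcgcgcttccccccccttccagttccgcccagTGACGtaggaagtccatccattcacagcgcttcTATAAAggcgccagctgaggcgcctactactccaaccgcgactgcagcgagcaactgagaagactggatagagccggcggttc
Junb: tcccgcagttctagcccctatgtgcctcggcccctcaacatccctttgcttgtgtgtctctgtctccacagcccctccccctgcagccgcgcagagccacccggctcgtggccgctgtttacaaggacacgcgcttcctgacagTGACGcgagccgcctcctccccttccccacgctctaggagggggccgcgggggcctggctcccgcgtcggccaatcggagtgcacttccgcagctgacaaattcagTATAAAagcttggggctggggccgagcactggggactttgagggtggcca

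Both strands were searched for the cAMP response element TGACGTCA, its shorter form TGACG, which is contained in the full element, the AP-1 site TGANTCA, the TATA box TATAAA and the CArG box. The Fosb window held TGACG once, starting at base -60 from the annotated start. The Fos window held it at -129 and -66, with TATAAA at -33. The Junb window held TGACG at -106 and TATAAA at the RefSeq start itself. In GENCODE this minus-strand gene starts at 84978718, further downstream, so TATAAA lies before that start. The Fosl2, Jun and Jund windows held none of these letters. In GENCODE the Fosl2 gene begins at 32135801, before its window begins at 32136222, so the stretch before that start was not searched. Of 32851 mouse promoter windows of the same length, 20.8% held TGACG, 13.6% TATAAA, 7.81% TGANTCA, 1.79% TGACGTCA and 1.63% a CArG box. A match describes the letters only, and no match says only that these letters are not in the window.

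The libraries held 19.1 to 55.0 mega counts over genes, and depth differed within groups, so levels are given as CPM (counts per mega counts in that library, scaled with TMM). Rgs20, the targeted gene, averaged 12.1 ± 0.67 CPM in KO morphine libraries, 12.6 ± 0.95 in KO naive, 13.1 ± 1.04 in WT morphine and 12.8 ± 0.82 in WT naive (SD, n = 4). It was not lower in the libraries labelled KO beyond this spread (log2 fold change -0.11 ± 0.07 and -0.02 ± 0.07, SE, in morphine and naive libraries, adjusted p over 0.05 in both, edgeR). A single count per gene cannot tell which exons were read, so every direction between KO and WT below is one between labels. The tissue check found neuronal markers at 3092 to 3796 summed CPM and Slc17a6 of excitatory midbrain neurons at 430 to 551 CPM. Some cell type markers differed between libraries. The 10 serotonin neuron markers summed to 595 to 1788 CPM in KO morphine, 167 to 408 in KO naive, 732 to 950 in WT morphine and 267 to 915 in WT naive libraries. The 8 oligodendrocyte markers summed to 6889 to 8752 CPM in KO morphine, 9937 to 11421 in KO naive, 8660 to 10067 in WT morphine and 6365 to 11046 in WT naive libraries. The 4 cholinergic and motor neuron markers measured summed to 17.8 to 82.7 CPM in KO morphine, 8.95 to 16.9 in KO naive, 10.4 to 88.0 in WT morphine and 9.42 to 35.2 in WT naive libraries. Averaged over genotype, 3 of these 4 rose with morphine, and their part in the members' values was not tested. The 4 noradrenergic neuron markers summed to 0.16 to 39.4 CPM in KO morphine and 0.09 to 0.47 in KO naive libraries. In WT the noradrenergic sum was 0.36 to 6.27 CPM in morphine and 0.39 to 1.23 in naive libraries. The part of these cells in the members' values was not tested either.

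Of the family, Jund was the most abundant transcript and Fosb the least in every group, compared as CPM per kilobase of exon. In the morphine groups the order of mean level was Jund, Fos, Jun, Junb, Fosl1, Fosl2, Fosb, and in the naive groups Jun stood above Fos. Jund averaged 41.0 CPM per kilobase in KO morphine, 39.4 in KO naive, 40.2 in WT morphine and 44.4 in WT naive libraries, and made up 56.1%, 60.8%, 55.8% and 61.1% of the family's summed level per length in the same order of groups. Of the exon bases of Jund, 52.6% overlap Gm11175 on the opposite strand, which had 0 counts in every library. The library kit did not keep the strand and the strand setting of the counting is not given, so that 0 does not show that Gm11175 is silent. How reads in the shared stretch were counted is not known, which also bears on the level per length and the share of Jund. Fos and Jun overlapped in all 4 groups. Fos averaged 11.8 CPM per kilobase in KO morphine, 7.41 in KO naive, 11.3 in WT morphine and 7.90 in WT naive libraries. Jun averaged 10.2, 9.19, 9.94 and 9.89 CPM per kilobase in the same order. Fos and Junb overlapped only in WT naive libraries among the 4 groups. At the low end, Fosl2 and Fosb overlapped in KO morphine and WT naive libraries and stood apart in KO naive and WT morphine libraries. The order was the same when length was taken from the longest coding transcript, but some overlaps were not. With that length Fos and Jun stood apart in WT morphine libraries, and Fos and Junb overlapped in KO naive libraries too. Fosl1 and Fosl2 then overlapped in both morphine groups.

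With morphine, Fosb and Fosl2 rose in both genotypes, Junb fell in WT libraries, and the other members did not pass the test within a genotype. In the libraries labelled KO, 2 of 7 members were higher and none was lower, where 11.5% of all tested genes changed (5.67% higher, 5.83% lower; threshold 0.05 on the p of edgeR's quasi-likelihood test, adjusted over all genes by Benjamini-Hochberg). In WT libraries 2 of 7 were higher and 1 lower, where 4.41% of all tested genes changed (2.34% higher, 2.07% lower). The median log2 fold change over the members was 0.15 in KO and 0.23 in WT, against medians within 0.01 of 0 over all tested genes. These are bulk tissue measurements, in which a change in the number of expressing cells and a change in RNA per cell cannot be told apart.

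**Figure D1:**
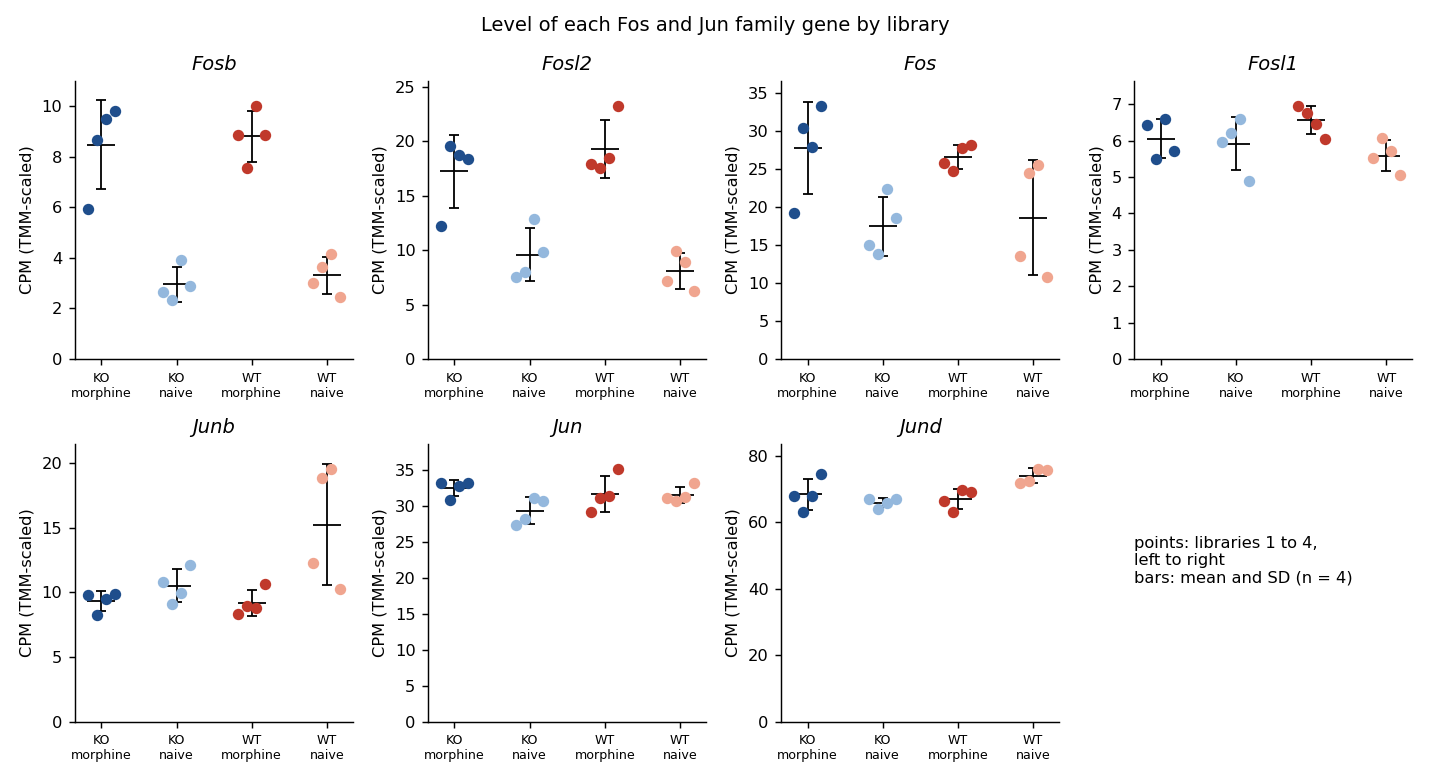
TMM-scaled CPM of each gene in each library (points, libraries 1 to 4 from left to right) with the group mean and SD (bars, n = 4), by group along the horizontal axis; each panel has its own vertical scale from 0. The morphine libraries lie above the naive libraries without overlap for Fosb in both genotypes and for Fosl2 in WT, and Junb is highest in WT naive libraries 2 and 3.

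Fosb, the gene of FosB and delta-FosB (chr7:19302696-19310051 on GRCm38, minus strand), had 5.95, 8.67, 9.51 and 9.79 CPM in the 4 KO morphine libraries, against 2.67, 2.34, 3.93 and 2.87 CPM in the KO naive libraries. It had 8.86, 7.54, 9.99 and 8.84 CPM in WT morphine libraries, against 3.00, 3.65, 4.15 and 2.46 CPM in WT naive libraries. Every morphine library was above every naive library of its genotype, and KO morphine 1 was the lowest of the 8 morphine libraries. These levels rest on 80 to 532 reads per library. Fosb rose 2.90-fold in KO libraries (log2 fold change 1.54 ± 0.19, adjusted p = 0.0001937, edgeR) and 2.64-fold in WT libraries (1.40 ± 0.18, adjusted p = 0.0002303). By size of increase it ranked 84 among 18111 genes in KO and 36 in WT. The call held in 28 of 28 alternative analyses in each genotype, among them those without a library of the other genotype. Log2 fold changes were 1.18 to 1.80 in KO and 1.28 to 1.53 in WT. Of 5 endothelial markers 3 fell with morphine in each genotype, and their sum was 100 to 136 CPM in KO morphine, 149 to 170 in KO naive, 105 to 121 in WT morphine and 131 to 167 in WT naive libraries; their part in the Fosb and Fosl2 values was not tested.

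Fosl2 encodes a Fos protein that lacks the strong activation domain of Fos and FosB (chr5:32135801-32157842, plus strand). It had 12.2, 19.6, 18.7 and 18.4 CPM in KO morphine libraries, against 7.54, 8.01, 12.9 and 9.83 CPM in KO naive libraries. In WT it had 17.9, 17.6, 18.4 and 23.2 CPM in morphine libraries, against 7.14, 9.96, 8.93 and 6.25 CPM in naive libraries. The WT groups stood apart, while KO morphine 1 lay below KO naive 3. Groups that stood apart with morphine higher were found for 5.96% of all tested genes in WT and 8.27% in KO. Fosl2 rose 1.81-fold in KO libraries (log2 fold change 0.86 ± 0.20, adjusted p = 0.01316, edgeR) and 2.37-fold in WT libraries (1.25 ± 0.19, adjusted p = 0.002197).

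The KO call of Fosl2 was lost with the oligodendrocyte marker score as a covariate (0.51 ± 0.29, adjusted p = 0.3415, edgeR), with the serotonin marker score as one (1.11 ± 0.31, adjusted p = 0.0794), and without KO naive 2 (0.78 ± 0.21, adjusted p = 0.05006). In the same KO comparison 7 of 8 oligodendrocyte markers fell and 9 of 10 serotonin markers rose, and Fosb kept its call with each score as a covariate (1.18 ± 0.27, adjusted p = 0.02655, and 1.80 ± 0.28, adjusted p = 0.01086). In WT the median log2 fold change was 0.01 over the oligodendrocyte markers and 0.56 over the serotonin markers. In KO both scores split the groups without overlap. The oligodendrocyte score was -0.40 to -0.11 in KO morphine and 0.13 to 0.38 in KO naive libraries. The serotonin score was 0.06 to 1.34 in KO morphine and -1.75 to -0.44 in KO naive libraries. These fits therefore cannot tell the part of those cells from that of morphine in KO, whether a call was lost or kept. Otherwise the part of those cells in the Fosl2 and Fosb values was not tested.

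Fos, the prototype immediate early gene (chr12:85473890-85477273, plus strand), had 19.2, 30.4, 27.9 and 33.2 CPM in KO morphine libraries, against 15.0, 13.8, 22.3 and 18.6 CPM in KO naive libraries. In WT it had 25.8, 24.8, 27.7 and 28.1 CPM in morphine libraries, against 13.5, 24.5, 25.6 and 10.8 CPM in naive libraries. The groups overlapped in both genotypes, and the WT naive libraries split into 2 near the morphine level and 2 well below it. The log2 fold change was 0.68 ± 0.27 in KO (adjusted p = 0.1298, edgeR) and 0.50 ± 0.26 in WT (adjusted p = 0.3108), with 95% intervals of 0.15 to 1.20 and -0.01 to 1.01. With the oligodendrocyte score as a covariate the KO value was 0.02 ± 0.35 (adjusted p = 0.9893, edgeR). That score split the KO groups without overlap, so this fit cannot tell it from morphine in KO. Averaged over genotype, Fos passed the test at 0.59 ± 0.19 (adjusted p = 0.04767), a call that held in 10 of 27 alternative analyses.

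That averaged call of Fos was lost when any 1 of 12 libraries was left out, among them all 4 WT morphine libraries, and held without KO morphine 1, KO naive 3, WT naive 2 or WT naive 3. Over these 16 fits the log2 fold change was 0.49 to 0.68 and the adjusted p 0.02983 to 0.0952 (edgeR). With the oligodendrocyte score as a covariate it was 0.29 ± 0.20, and with the serotonin score 0.89 ± 0.30. Both scores split the KO groups, so these fits carry the same limit in KO.

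Fosl1, the gene of the remaining Fos protein (chr19:5447547-5455946, plus strand), had 6.42, 5.50, 6.59 and 5.72 CPM in KO morphine libraries, against 5.97, 6.21, 6.59 and 4.89 CPM in KO naive libraries. It had 6.94, 6.76, 6.46 and 6.06 CPM in WT morphine libraries, against 5.52, 6.06, 5.71 and 5.04 CPM in WT naive libraries. The groups overlapped in KO and met at their edges in WT. Its log2 fold change was 0.04 ± 0.10 in KO and 0.23 ± 0.10 in WT (adjusted p = 0.861 and 0.1883, edgeR). Averaged over genotype it was 0.13 ± 0.07, and it passed the threshold in 1 of 27 alternative analyses, with the serotonin score as a covariate (0.33 ± 0.09, adjusted p = 0.04762). Of its exon bases, 57.2% overlap Ccdc85b on the opposite strand. The library kit did not keep the strand, so reads in the shared stretch cannot be told apart, which also bears on the level per length of Fosl1.

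Among the Jun genes, Junb, whose protein often acts against that of Jun (chr8:84974484-84978718, minus strand), was the only one of the 3 to pass the test within a genotype in the main fit. It had 9.84, 8.25, 9.51 and 9.84 CPM in KO morphine libraries, against 10.8, 9.14, 9.98 and 12.1 CPM in KO naive libraries. In WT it had 8.37, 8.96, 8.77 and 10.6 CPM in morphine libraries, against 12.2, 18.9, 19.6 and 10.2 CPM in naive libraries. WT naive 2 and 3 stood far above the other 14 libraries, and WT naive 4 lay within the range of the WT morphine libraries. Junb fell by 0.74 ± 0.17 on the log2 scale in WT (0.600-fold, adjusted p = 0.0265, edgeR), and its log2 fold change in KO was -0.17 ± 0.18 (adjusted p = 0.6191). About 7.52% of its exon bases overlap Prdx2 on the opposite strand, whose log2 fold change in WT was 0.02 ± 0.05.

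The WT call of Junb held in 17 of 28 alternative analyses. It was lost with no filter on low counts (adjusted p = 0.0646, edgeR), with the compared groups alone (0.142), with a replicate block (0.06799) and with 1 surrogate variable (0.09884). Without WT naive 2 its log2 fold change was -0.62 ± 0.17 (adjusted p = 0.08375, edgeR) and without WT naive 3 -0.60 ± 0.16 (adjusted p = 0.08047). Leaving out WT morphine 1, 2 or 3 gave -0.70, -0.73 and -0.71 (adjusted p = 0.0798, 0.07976 and 0.06395). WT naive 2 also had the highest score for meningeal fibroblast markers, and without it and KO morphine 3, the library with the next highest score, the value was -0.62 ± 0.19 (adjusted p = 0.109). With the serotonin marker score as a covariate it was -0.59 ± 0.19 (adjusted p = 0.1487). Averaged over genotype, Junb fell by 0.45 ± 0.12 on the log2 scale (adjusted p = 0.02133), which held in 23 of 27 alternative analyses, those without each single library included. The averaged call was lost without a filter on low counts (adjusted p = 0.05466, edgeR), with limma-voom (adjusted p = 0.05087) and without WT naive 2 and KO morphine 3 together (adjusted p = 0.06114). It was also lost with the serotonin score as a covariate, at -0.23 ± 0.18 (adjusted p = 0.5616), a score that split the KO groups without overlap.

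Jun, the founding member and a target of the JNK kinases (chr4:95049034-95052222, minus strand), had 33.2, 30.8, 32.7 and 33.2 CPM in KO morphine libraries, against 27.3, 28.2, 31.1 and 30.6 CPM in KO naive libraries. It had 29.2, 31.0, 31.4 and 35.1 CPM in WT morphine libraries, against 31.1, 30.6, 31.3 and 33.1 CPM in WT naive libraries. KO morphine libraries lay above the KO naive libraries except that KO morphine 2 was below KO naive 3, and the WT groups lay over one another. The log2 fold change was 0.15 ± 0.06 in KO (adjusted p = 0.08294, edgeR) and 0.01 ± 0.05 in WT (adjusted p = 0.961). The WT 95% interval was -0.10 to 0.11. The KO value passed the threshold in 2 of 28 alternative analyses, with a replicate block and without WT morphine 4 (0.15 and 0.15, adjusted p = 0.04651 and 0.04832).

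Jund, the steadily expressed Jun gene and a main partner of delta-FosB in the striatum (chr8:70698949-70700616, plus strand), had 67.9, 63.2, 67.9 and 74.4 CPM in KO morphine libraries, against 66.8, 63.9, 65.6 and 66.8 CPM in KO naive libraries. In WT it had 66.2, 63.2, 69.6 and 69.0 CPM in morphine libraries, against 71.8, 72.4, 76.0 and 75.8 CPM in naive libraries. The WT morphine libraries all lay below the WT naive libraries, as for 5.09% of all tested genes, and the KO groups overlapped. The log2 fold change was 0.06 ± 0.04 in KO (adjusted p = 0.4435, edgeR) and -0.14 ± 0.04 in WT (adjusted p = 0.06856). The WT value passed the threshold in 4 of 28 alternative analyses: with DESeq2's Wald test, with a replicate block, and without KO morphine 2 or KO morphine 4 (adjusted p = 0.03692, 0.03492, 0.04616 and 0.03854). With morphine averaged over genotype, 3 members were higher (Fosb, Fosl2 and Fos) and 1 lower (Junb), where 17.1% of all tested genes changed (9.02% higher, 8.03% lower).

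**Figure D2:**
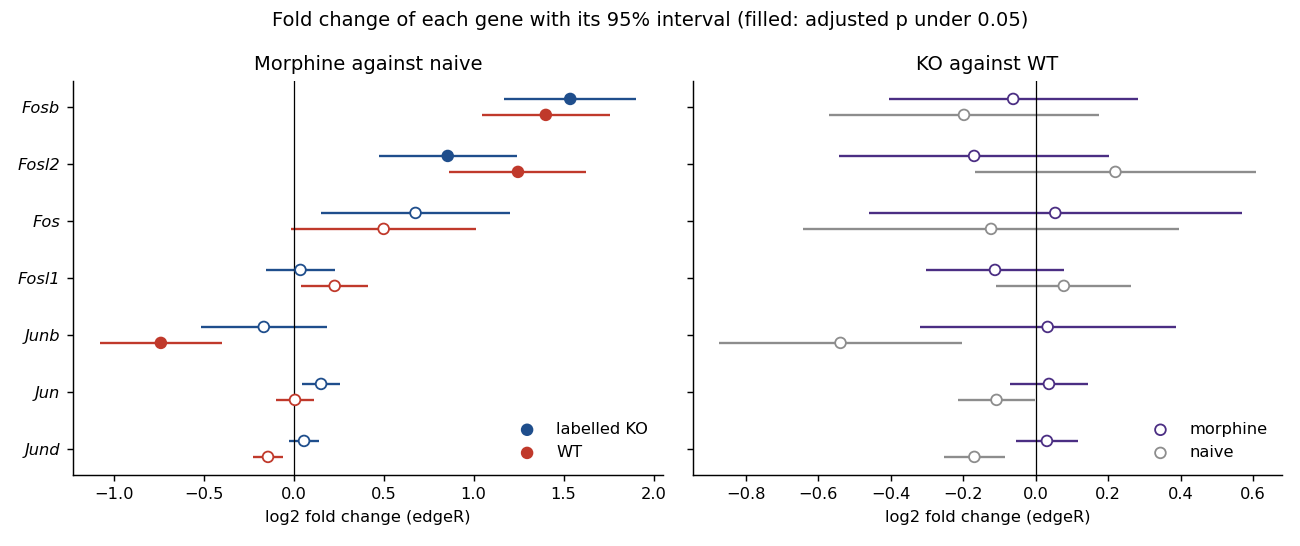
Log2 fold change of each gene with its 95% interval (edgeR), on the left morphine against naive in libraries labelled KO (upper point of each pair) and in WT (lower point), on the right KO against WT in morphine (upper point) and naive libraries (lower point); filled points have an adjusted p under 0.05. The filled points are Fosb and Fosl2 in both genotypes and Junb in WT, and no point on the right is filled.

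The ratio of Fosb to Fos reads, which does not depend on library scaling, was higher in every morphine library than in any naive library. There were 31.0, 28.5, 34.1 and 29.5 Fosb reads per 100 Fos reads in KO morphine libraries, against 17.8, 16.9, 17.6 and 15.5 in KO naive libraries. In WT there were 34.3, 30.5, 36.0 and 31.5 in morphine libraries, against 22.3, 14.9, 16.2 and 22.8 in naive libraries. The lowest morphine library, KO morphine 2, stood above the highest naive library, WT naive 4. The ratio differed 1.81-fold in KO and 1.76-fold in WT (0.86 and 0.81 on the log2 scale; two-sided exact permutation test, n = 4 against 4, p = 0.02857 in each, the smallest this design can give). Adjusted over the 4 comparisons of the ratio these are 0.05714 and miss 0.05. With only these 2 comparisons at the smallest p, the adjusted value could not be lower, whatever the size of the difference. Against WT, the log2 ratio in KO differed by -0.10 in morphine libraries and -0.14 in naive libraries (exact permutation p = 0.2286 and 0.4). Of the level per length of the 4 Fos genes together, Fosb took 7.56 ± 0.51% in KO morphine, 3.99 ± 0.24% in KO naive, 7.85 ± 0.65% in WT morphine and 4.52 ± 0.50% in WT naive libraries (SD, n = 4).

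**Figure D3:**
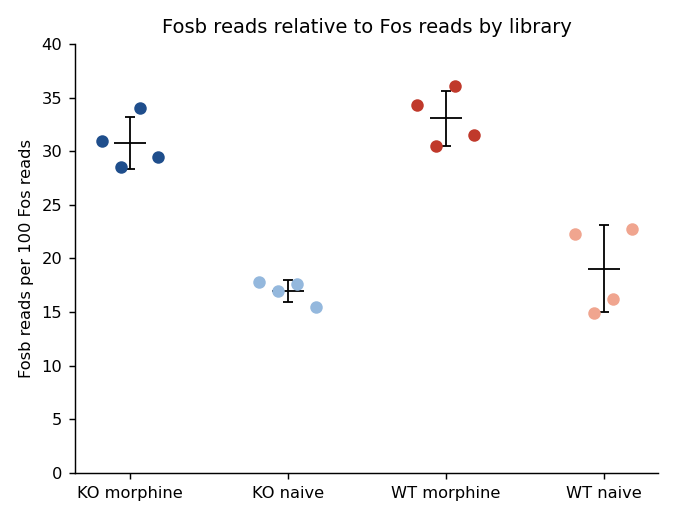
Fosb reads per 100 Fos reads in each library (points) with the group mean and SD (bars, n = 4). Morphine libraries lie between 28.5 and 36.0 and naive libraries between 14.9 and 22.8.

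Between genotypes, no member passed the test in either treatment or in the interaction. In morphine libraries the members' log2 fold changes of KO against WT lay between -0.17 and 0.05, with 0 of 7 called (edgeR; 0 also at an unadjusted p under 0.05, 0 with DESeq2 and 0 with limma-voom), where 0.53% of all tested genes were called. For Fosb the difference was -0.06 ± 0.18 with a 95% interval of -0.41 to 0.28, and for Fosl2 it was -0.17 ± 0.19 with an interval of -0.54 to 0.20. In naive libraries 0 of 7 were called by edgeR and limma-voom and 1, Jund, by DESeq2, and 2, Junb and Jund, had an unadjusted p under 0.05, where 0.906% of all tested genes were called. Naive KO libraries had lower mean levels of Junb, at 10.5 ± 1.29 CPM, against 15.2 ± 4.69 CPM in naive WT libraries, and of Jund, at 65.8 ± 1.39 CPM against 74.0 ± 2.19 CPM (SD, n = 4).

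The naive difference of Junb was -0.54 ± 0.17 (adjusted p = 0.1793, edgeR) and passed the threshold in 1 of 28 alternatives, without WT naive 4 (-0.69 ± 0.14, adjusted p = 0.02497). That of Jund was -0.17 ± 0.04 (adjusted p = 0.07143), its groups did not overlap, as for 3.99% of all tested genes in that direction, and it passed in 5 of 28 alternatives, among them those without KO morphine 2 and without KO morphine 4 (adjusted p = 0.04814 and 0.03599).

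The interaction, the log2 fold change with morphine in KO minus that in WT, was 0.14 ± 0.26 for Fosb (95% interval -0.37 to 0.64), -0.39 ± 0.27 for Fosl2 (-0.93 to 0.15), 0.57 ± 0.25 for Junb (adjusted p = 0.3823, edgeR) and 0.20 ± 0.06 for Jund (adjusted p = 0.2677). None of the 7 members was called by edgeR, DESeq2 or limma-voom, and 2, Junb and Jund, had an unadjusted p under 0.05. Over all tested genes 0% were called by edgeR and by limma-voom, 107 genes were called by DESeq2, and 2200 had an unadjusted p under 0.05. The larger Fosl2 increase in WT and the Junb decrease in WT were therefore not shown to differ from the values in KO. Averaged over treatment, KO against WT gave 0 of 7 members (edgeR, DESeq2 and limma-voom), with 1, Jund, at an unadjusted p under 0.05, where 1.53% of all tested genes were called.

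Within groups, Fos, Fosb and Fosl2 moved together from library to library. As deviations of log2 CPM from the group mean over all 16 libraries, Fos and Fosb had a Pearson r of 0.90, Fos and Fosl2 0.87, and Fosb and Fosl2 0.85. Junb had 0.71 with Fos and 0.47 with both Fosb and Fosl2. Jun, Jund and Fosl1 had lower r with each of these 4 genes, of which the highest were 0.29 (Jun with Fosl2), 0.28 (Jund with Fosb) and 0.17 (Fosl1 with Fosb). The 2 genes of a pair share library, depth and dissection, so these are descriptions. KO morphine 1 was low for Fos, Fosb and Fosl2 together, KO naive 3 was high for the same 3 genes, and WT naive 2 and 3 were high for these and for Junb, with WT naive 4 low.

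**Figure D4:**
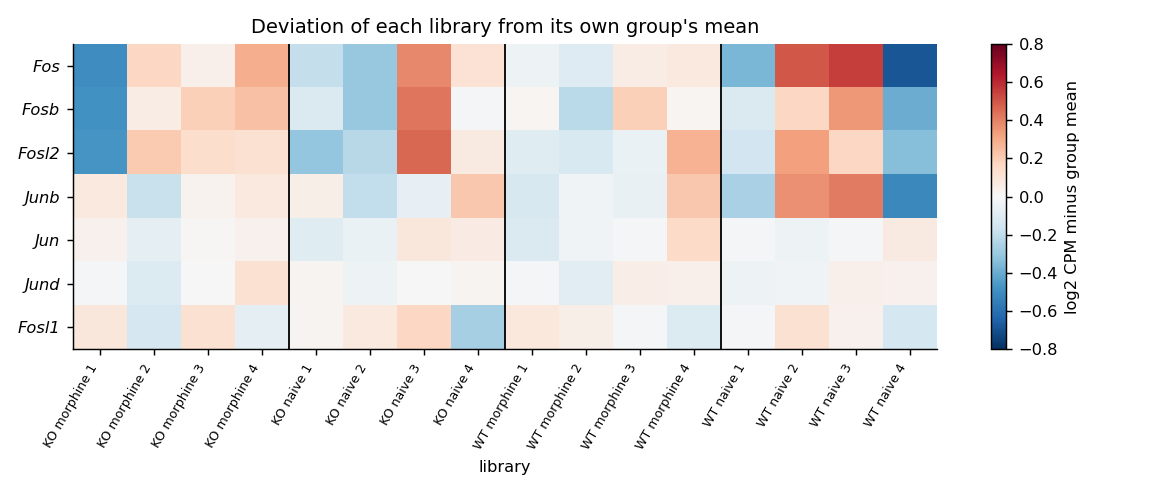
Deviation of each library from its own group's mean (log2 CPM, colour scale) for each gene (rows) and library (columns, black lines between groups). Fos, Fosb and Fosl2 are low together in KO morphine 1 and high together in KO naive 3, and Junb joins them in the WT naive libraries.

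The genes whose within-group pattern was most like that of each member, among 12709 candidates over the same 16 libraries, included known immediate early genes. Closest to Fos were Egr1 (r = 0.93), a zinc finger factor of the same early response, Emp2 (0.88) and the orphan nuclear receptor gene Nr4a1 (0.88). Closest to Fosb were Nr4a3 (0.86), Abcb4 (0.84) and Tada2b (0.83), and closest to Fosl2 were Rbm12 (0.88), Nr4a3 (0.85) and Stk40 (0.83). Btg2, an antiproliferative early gene, was closest to Junb (0.90), followed by Prrx1 (0.87) and Entpd2 (0.86).

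Jun was most like the heat shock co-chaperone gene Dnajb1 (0.87), Dph2 (0.86) and Nr2f6 (0.85). Jund was most like Alkbh7 (0.86), Arhgef17 (0.83) and Fam104a (0.81), and Fosl1 was most like Derl2 (0.83), Orai1 (0.80) and Rpa3 (0.80). These genes were chosen for their likeness over the same libraries, so a shared pattern is no separate finding. The group differences were not used in that choice. Nr4a3 rose with morphine, by 0.68 ± 0.20 in KO and 0.91 ± 0.20 in WT on the log2 scale (adjusted p = 0.04101 and 0.01861, edgeR). Egr1 had log2 fold changes with morphine of -0.01 ± 0.19 in KO and -0.04 ± 0.19 in WT (adjusted p = 0.984 and 0.9288, edgeR).

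Of the other leucine zipper partners of AP-1, 13 of 16 listed genes were tested. With morphine 2 rose and 1 fell in KO, where 5.67% of all tested genes rose and 5.83% fell. In WT 2 rose and none fell, where the shares over all tested genes were 2.34% and 2.07%. The 2 that rose were the small Maf genes Mafk and Maff, whose proteins bind DNA but lack an activation domain. Maff averaged 3.87 CPM in KO morphine and 1.99 in KO naive libraries, and 3.59 CPM in WT morphine and 1.94 in WT naive libraries (log2 fold change 0.96 ± 0.16 in KO and 0.89 ± 0.16 in WT, adjusted p = 0.001301 and 0.003125, edgeR). Mafk rose by 0.52 ± 0.08 in KO and 0.58 ± 0.08 in WT on the log2 scale (adjusted p = 0.001071 and 0.0003877). Atf7 fell by 0.19 ± 0.05 in KO, where its WT value was -0.08 ± 0.05 (adjusted p = 0.3635, edgeR) and its interaction -0.11 ± 0.07 (adjusted p = 0.5421). Averaged over genotype, Atf2, a Jun partner, passed the test at 0.07 ± 0.02 (adjusted p = 0.03602). The list's median log2 fold change was 0.06 in KO and 0.08 in WT.

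Of 25 tested kinases and transcription factors that act upstream of the family, 1 rose in KO and 1 fell in WT, with medians of 0.01 and 0.03. Over all tested genes 11.5% changed in KO and 4.41% in WT. Map2k1, a kinase of the ERK pathway, rose by 0.14 ± 0.04 in KO (adjusted p = 0.02656, edgeR), and Elk3, a ternary complex factor, fell by 0.33 ± 0.08 in WT (adjusted p = 0.03653). In KO the log2 fold change of Elk3 was -0.18 ± 0.09 (adjusted p = 0.1891, edgeR). Averaged over genotype, 3 of the 25 were higher and 1 lower, where 9.02% of all tested genes were higher and 8.03% lower. Among the higher, Map2k4, which acts on JNK, and Map2k6, which acts on p38, passed at 0.10 ± 0.02 and 0.17 ± 0.05 (adjusted p = 0.007874 and 0.03165, edgeR).

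Of 20 genes known from other tissues or cells as targets of AP-1 or delta-FosB, 18 were tested, and 4 rose in KO and 1 fell in WT, with medians of 0.03 and -0.05. Over all tested genes 5.67% rose in KO and 2.07% fell in WT. Pdyn, the prodynorphin gene, which delta-FosB is known to repress in the striatum, averaged 10.9 CPM in KO morphine, against 4.56 CPM in KO naive libraries (log2 fold change 1.24 ± 0.27, adjusted p = 0.00949, edgeR). In WT it averaged 7.36 CPM in morphine, against 4.90 CPM in naive libraries (0.60 ± 0.27, adjusted p = 0.2247). The proenkephalin gene Penk rose by 0.36 ± 0.06 in KO (adjusted p = 0.002411), where the WT value was 0.13 ± 0.06 (adjusted p = 0.2491). Calb1, a calcium buffer, and Cd44, a cell surface receptor, also rose in KO (0.51 ± 0.12 and 0.69 ± 0.18), and the cyclin gene Ccnd1 fell by 0.31 ± 0.07 in WT. In the interaction 0 of the 18 tested genes were called, so the KO and WT values were not shown to differ. The serotonin and oligodendrocyte scores split the KO groups, and the part of those cells in these values was not tested.

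Cd44 was the 1 gene of that list called between genotypes, at 0.83 ± 0.18 in KO against WT morphine libraries (adjusted p = 0.04215, edgeR; means 2.17 and 1.22 CPM). Its interaction was 1.15 ± 0.25 (adjusted p = 0.1435).

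Of 23 tested other immediate early genes, 9 rose and 2 fell in KO, and 5 rose and 2 fell in WT, with medians of 0.25 and 0.07. Over all tested genes 5.67% rose and 5.83% fell in KO, and 2.34% rose and 2.07% fell in WT. Gadd45g rose by 0.87 ± 0.10 in KO and 0.78 ± 0.10 in WT, and Csrnp1 by 0.64 ± 0.10 in KO and 0.39 ± 0.10 in WT on the log2 scale. Homer1, a synaptic scaffold gene, rose by 0.40 ± 0.06 in WT (adjusted p = 0.0008728 with edgeR), and Dusp6, an ERK phosphatase gene, fell by 0.46 ± 0.07 in KO (adjusted p = 0.0008007). Btg2 rose by 0.44 ± 0.14 in KO and fell by 0.54 ± 0.14 in WT (adjusted p = 0.04957 and 0.03382). In naive libraries Btg2 averaged 7.09 CPM in KO, against 11.4 CPM in WT (log2 fold change -0.69 ± 0.14, adjusted p = 0.02079), and Nr4a1 averaged 9.12 CPM in KO, against 14.5 CPM in WT (-0.67 ± 0.14, adjusted p = 0.03874). WT naive 2 and 3 were the highest for both genes, as for Junb. In WT naive libraries 1 to 4 Btg2 had 9.65, 14.3, 13.0 and 8.85 CPM, and Nr4a1 had 12.4, 17.4, 17.4 and 10.7 CPM. Whether the calls of Btg2 and Nr4a1 hold without either library was not tested. The interaction of Btg2 was 0.98 ± 0.20 (adjusted p = 0.1435). In the interaction 0 of the 23 tested genes were called, so a change given for 1 genotype was not shown to be particular to it.

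Genes induced by glucocorticoids, the stress hormones of the adrenal cortex, were listed because some early genes respond to them too. The list was chosen with earlier results of these data known, so its counts and medians are descriptions and no separate finding. Of 18 tested, 16 rose in KO and 15 in WT, with medians of 0.83 and 0.84, against medians of the 7 family members of 0.15 and 0.23. Over all tested genes 5.67% rose in KO and 2.34% in WT. Cdkn1a rose by 1.98 ± 0.16 in KO and 2.23 ± 0.16 in WT, and Fkbp5 (a co-chaperone that binds the receptor of these hormones) by 1.10 ± 0.13 in KO and 1.29 ± 0.13 in WT on the log2 scale. Arrdc2 rose by 0.93 ± 0.13 in KO and 1.47 ± 0.13 in WT, and Klf15 by 0.37 ± 0.07 in KO and 0.66 ± 0.07 in WT. Ddit4 was the 1 gene of that list called between genotypes, at -0.29 ± 0.07 in KO against WT averaged over treatment (adjusted p = 0.04378, edgeR). The part of such hormones in the Fosb and Fosl2 increases was not tested.

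**Figure D5:**
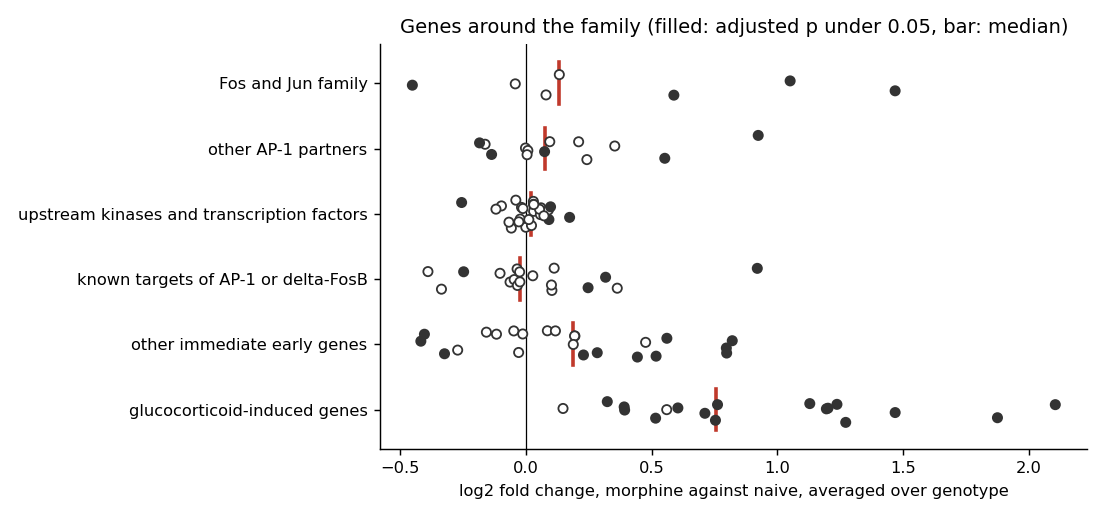
Log2 fold change of morphine against naive averaged over genotype (horizontal axis) for the 7 family members and for each gene of the 5 lists (points, filled where the adjusted p is under 0.05), with the median of each list (red bar). The family spans -0.45 (Junb) to 1.47 (Fosb) with a median of 0.13, and the glucocorticoid-induced genes have a median of 0.76.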

How the data were processed

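PolyA RNA of 16 mouse PAG samples was sequenced. Per the labels' protocols, TRIzol was used for extraction and the TruSeq RNA v2 kit, which keeps no strand, for library preparation. The authors deposited 1 file of gene counts (whole reads) per library, made with HTSeq on mm10, per the submitters' processing notes, where limma is named as well. Which aligner, annotation and strand setting they used is not given in the sources used here. Reads tallied outside genes (38.2 to 40.6%) stayed out of library sizes and tests. GENCODE M21 (GRCm38, equal to mm10) gave symbols, positions and exon lengths for 37607 of 38924 identifiers.

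The edgeR package (4.0.16 under R 4.3.3) was used to filter genes (filterByExpr, minimum count 10), to scale by TMM and to run robust quasi-likelihood tests. A single model held all 16 libraries, with a coefficient for each group. The threshold was a Benjamini-Hochberg adjusted p of 0.05 over 18111 genes, and the common biological coefficient of variation was 0.0835. The script was tested on simulated data. Errors are SE for log2 fold changes, with normal 95% intervals, and SD for levels. The SE was worked back from the log2 fold change and the F statistic of edgeR's test. Such normal intervals are narrower than the test implies and can leave out 0 at an unadjusted p over 0.05. For Jun in KO against WT naive libraries the interval was -0.21 to -0.003 at an unadjusted p of 0.05936 (edgeR). The Fosb to Fos ratio took 0.5 added counts and exact permutation over libraries. All 7 members are named; of each gene list, up to 4 genes with the smallest p with morphine averaged over genotype, and any called between genotypes or in the interaction; for likeness, 3 genes per member. The members and lists were chosen with earlier results of these data known.

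Alternatives were DESeq2's size factors, no filter, limma-voom (3.58.1), 1 CPM or more in 8 libraries as the filter, the Wald test of DESeq2 (1.42.0), the compared groups alone, a replicate block, 1 surrogate variable (sva 3.50.0), the serotonin or oligodendrocyte marker score as a covariate, thinning to the smallest total, and leaving out each library. For the members, leaving out a library of a group not compared also counted as an alternative. Such a fit keeps every compared library and changes only the shared filter, scaling and estimate of spread. For the ratio such fits were not counted, and an added count of 5 was tried. Leaving out WT naive 2 and KO morphine 3 together, the libraries with the highest meningeal fibroblast scores, and taking the length of the longest coding transcript were chosen after seeing the data.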

Additional observations from a re-analysis of the deposited data

Results flagged for a closer look

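In 2 of 32 groups checked, 1 library stood far from the other 3, a gap that chance gives in about 1 in 20 groups. Both were of Fosl2. WT morphine 4 was the highest of its group at 23.2 CPM, and the gap to the nearest library took 0.847 of the group's whole range. KO morphine 1 was the lowest of its group at 12.2 CPM, and the gap took 0.842 of the range.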

How the results depend on the processing

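Changing 1 choice at a time, the number of members called with morphine was 2 to 4 in WT (3 as reported). In KO it was 1 to 3 when single libraries were left out (2 as reported) and 1, Fosb, with the serotonin or the oligodendrocyte score as a covariate. Averaged over genotype it was 3 to 4 without single libraries (4 as reported), 3 with the serotonin score as a covariate (Fosb, Fosl2 and Fosl1, with Fos and Junb lost), and 2, Fosb and Fosl2, without a filter on low counts and without the 2 libraries of high meningeal score. Between naive genotypes it was 0 to 1 without single libraries (0 as reported), and 1, Jund, with DESeq2's Wald test, with the compared groups alone and with the replicate block. In the morphine genotype comparison, the interaction and the averaged genotype comparison it stayed 0 in each alternative run. No direction of a called result reversed in any alternative run; the causes of these differences were not tested.

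Libraries of the same number did not pair: the correlation of their deviations across genes was -0.16 to 0.13, and at most 2 of 8 libraries correlated best with their own number. With the replicate block, 3 members were called in WT (Fosb, Fosl2 and Jund) and 3 in KO (Fosb, Fosl2 and Jun). The replicate block called 512 genes in WT, against 798 without it, and 1732 in KO, against 2082. The lowest count of any member was 80 reads, of Fosb in WT naive 1. Alternatives were run for the members and for the Fosb to Fos ratio, not for the listed genes.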
